A study of Mus musculus with 12 samples.

Results

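The genes examined were 10 natural killer (NK) receptor and adaptor genes, followed through T cells sorted from mice: the receptors Klrb1c, Klrk1, Klrc1, Klrd1, Klre1, Klrg1, Klri2 and Ncr1, and the adaptors Tyrobp and Fcer1g. They were taken by symbol, as 10 of the 52459 genes of the count table, and all 10 were among the 16218 genes with enough reads to test. RNA sequencing was done in a study of steatohepatitis, a fatty and inflamed state of the liver. The 12 libraries formed 6 groups of 2. They were γδ T cells of wild-type (WT) C57BL/6 mice fed an MCD diet, which lacks methionine and choline, and γδ T cells of WT mice fed a control diet. CD4+ T cells came from γδTCR-/- mice, which lack the γδ T cell receptor (KO), fed the MCD diet or the control diet, and from WT mice fed the MCD diet or the control diet. Mice entered the study at 7 weeks of age and stayed on their diet for 6 weeks. Neither the tissue of origin nor whether the replicates are separate mice is given in the labels, so p-values here reflect the spread between the sequenced samples, which may be technical. The library used as γδ MCD replicate 2 is titled D2-D1_GDT, and the labels do not say whether this names a pool.

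NK cells weigh activating against inhibitory signals from receptors of the C-type lectin-like family, encoded by Klr genes, and of the immunoglobulin-like family, to which Ncr1 belongs. Most activating receptors have no signalling tail of their own and borrow one from an adaptor, such as DAP12 (Tyrobp) or the Fc receptor γ chain (Fcer1g), which passes the signal to the kinases Syk and Zap70. Many of these receptors also appear on T cells: NKT cells carry the NK1.1 antigen (Klrb1c) and need the transcription factor PLZF (Zbtb16), and many γδ T cells carry NKG2D (Klrk1). NKp46 (Ncr1) marks NK cells and related innate lymphocytes, while Tyrobp and Fcer1g are also abundant in myeloid cells.

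The sequences before the start sites of 3 lectin-like receptors that varied alike among CD4+ libraries, and of Ncr1, which did not, are given here as context for those values. Each is the 250 bases before the RefSeq transcript start (GRCm38.p6), 5′ to 3′ on the strand of the gene, with motif matches in capitals.
Klrb1c, minus strand, chr6:128788642-128788891: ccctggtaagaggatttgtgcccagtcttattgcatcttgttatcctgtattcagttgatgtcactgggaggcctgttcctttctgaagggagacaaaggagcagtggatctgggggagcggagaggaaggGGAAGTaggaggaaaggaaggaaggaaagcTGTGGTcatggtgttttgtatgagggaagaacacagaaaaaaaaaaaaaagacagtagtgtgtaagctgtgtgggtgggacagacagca
Klrk1, minus strand, chr6:129623865-129624114: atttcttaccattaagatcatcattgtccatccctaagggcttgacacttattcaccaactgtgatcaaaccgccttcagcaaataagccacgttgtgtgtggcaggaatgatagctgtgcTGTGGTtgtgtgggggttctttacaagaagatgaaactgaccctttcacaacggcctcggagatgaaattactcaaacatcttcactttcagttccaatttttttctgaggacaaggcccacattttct
Klrc1, minus strand, chr6:129678974-129679223: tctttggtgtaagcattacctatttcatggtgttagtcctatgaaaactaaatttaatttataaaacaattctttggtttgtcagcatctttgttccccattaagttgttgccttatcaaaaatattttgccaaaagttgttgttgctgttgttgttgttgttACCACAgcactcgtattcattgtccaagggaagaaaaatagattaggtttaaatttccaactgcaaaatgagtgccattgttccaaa
Ncr1, plus strand, chr7:4337465-4337714: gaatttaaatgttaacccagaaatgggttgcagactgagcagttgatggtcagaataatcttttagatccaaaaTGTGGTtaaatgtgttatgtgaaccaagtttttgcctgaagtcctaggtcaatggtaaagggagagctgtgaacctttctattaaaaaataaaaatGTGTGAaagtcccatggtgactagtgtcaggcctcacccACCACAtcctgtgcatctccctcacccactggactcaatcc
The motifs searched, on both strands, were a RUNX motif (TGTGGT or TGCGGT), an ETS motif (GGAAGT) and a T-box core (GTGTGA), and no matches overlapped in these 4 sequences. A RUNX match was present in each of them, at bases -89 in Klrb1c, -129 in Klrk1, -87 in Klrc1, and -176 and -41 in Ncr1, counted from the transcript start. Of all 32851 promoter windows of 300 bases, 22.4% held the RUNX motif, 23.8% the ETS motif and 14.5% the T-box core. Of the 4, Ncr1 held the T-box core and Klrb1c the ETS motif. Klre1, another lectin-like receptor, held the T-box core in both of its entries, at bases 31 and -42. These are the same genomic site, counted from different transcript starts. Its first entry also held a RUNX match, at base -229. In GRCm38, Klrb1c spans chr6:128778485-128789215, Klre1 chr6:129577905-129585827, Klrd1 chr6:129591782-129598775, Klrk1 chr6:129610323-129623864, Klrc1 chr6:129666015-129678973 and Klri2 chr6:129729041-129740484. Ncr1 spans chr7:4337724-4345164, Tyrobp chr7:30413760-30417585 and Fcer1g chr1:171229572-171234365. The promoter table held an entry for 6 of the 10 genes, and Klrd1, Klrg1, Klri2 and Tyrobp had none.

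Total counts per library were 17035638 to 23203603. Reads outside the mitochondrial genome numbered 7977220 and 9000102 in the γδ MCD libraries, where 8989 and 10125 genes had at least 10 counts, against 11903 to 13402 genes in the other 10 libraries. Cd4 had a level of 0.975 to 4.29 CPM (counts relative to library size, scaled by TMM) in γδ libraries and of 632 to 1448 CPM in CD4+ libraries. Trdc, the constant gene of the δ chain, lay at 538 to 733 CPM in γδ libraries, at 0.92 to 7.93 CPM in CD4+ KO and at 0.231 to 2.80 CPM in CD4+ WT libraries, so in cells that hardly use it it does not check the KO label. The γδ libraries also held myeloid transcripts. Lyz2, the macrophage lysozyme, read 1616 and 1178 CPM in γδ MCD and 616 and 1252 CPM in γδ control libraries, against 2.59 to 29.7 CPM in the 8 CD4+ libraries.

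**Figure D1:**
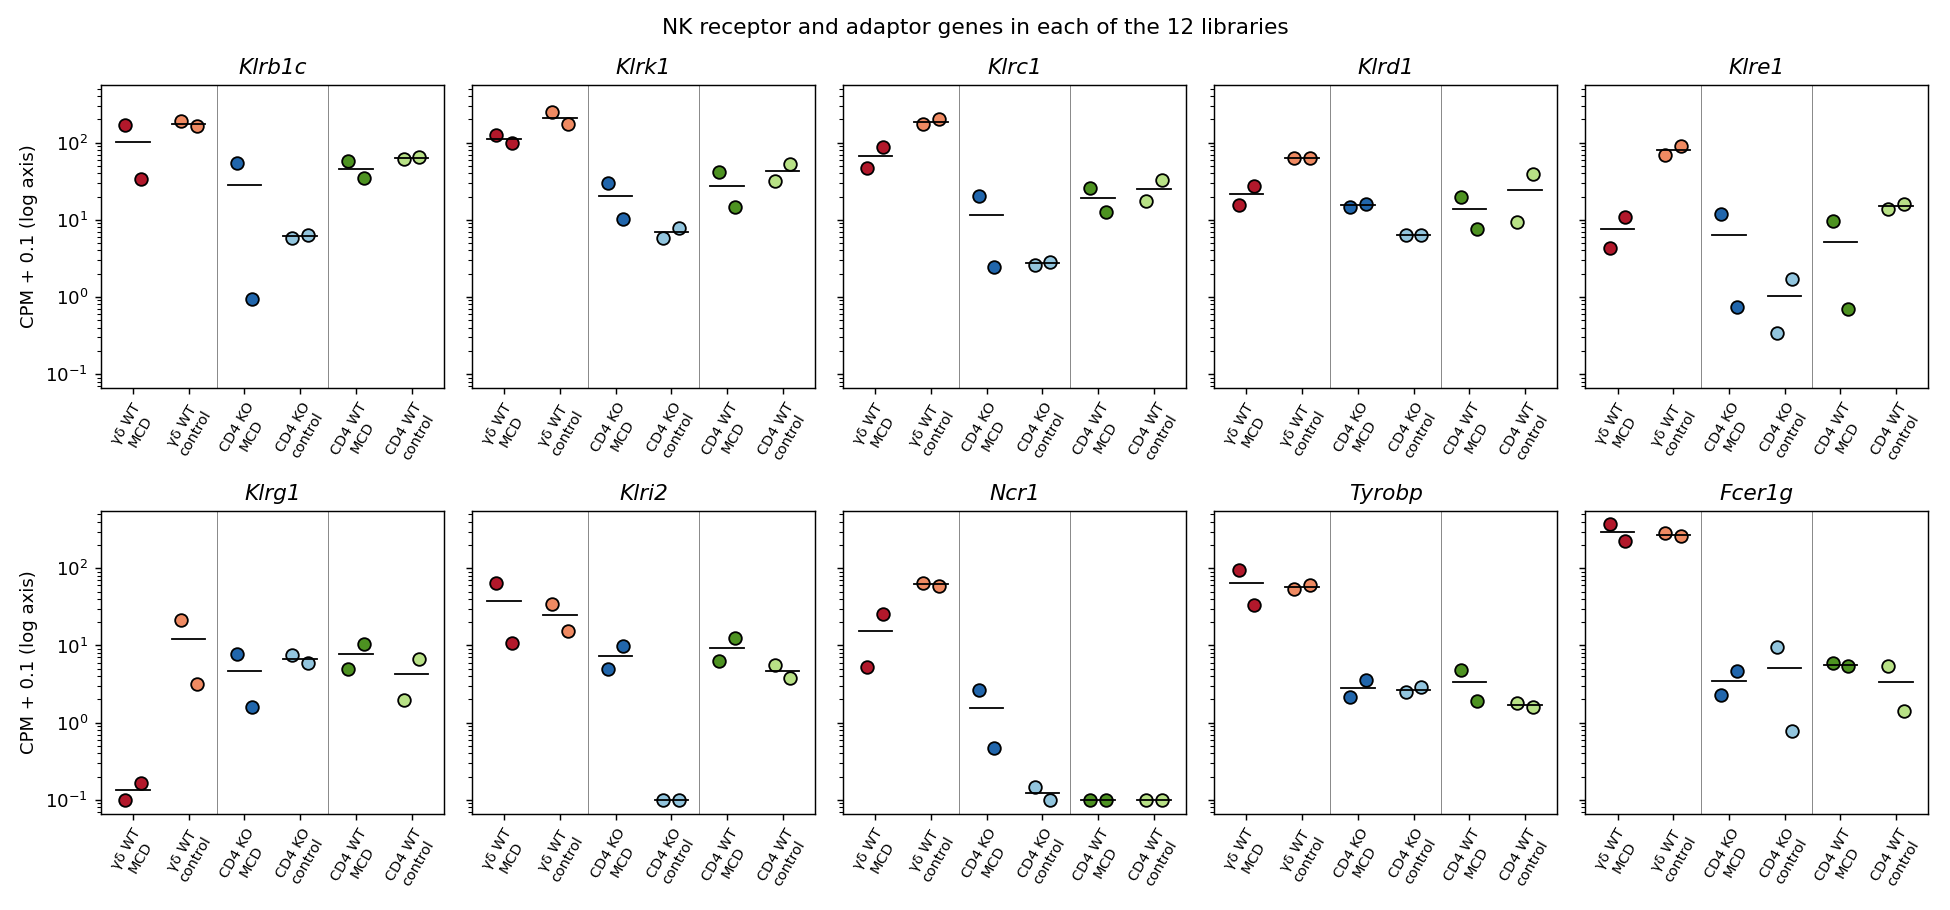
CPM plus 0.1 (log axis) of each of the 10 genes in every library, in 6 groups of 2; bars are group means and a point at the foot of an axis is a library at 0. Tyrobp and Fcer1g stand high in all 4 γδ libraries and at or under 9.41 CPM in all 8 CD4+ libraries, whereas the lectin-like receptors are present in both cell types.

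The comparison of cell types gave the most calls. Averaged over both diets, 5 of the 10 genes were higher in γδ than in CD4+ T cells of WT mice and none was lower (edgeR's quasi-likelihood test, Benjamini-Hochberg adjusted p under 0.05), where 3.42% of all genes tested were higher. The median log2 fold change of the 10 genes was 2.19, beside -0.23 over all genes. Both adaptors were among the 5, with Ncr1, Klrk1 and Klrc1, and for these 5 genes all 4 γδ libraries lay above all 4 CD4+ WT libraries, where 5.56% of all genes did so. In bulk RNA such as this, fewer cells that express a gene and less RNA per cell cannot be told apart.

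Fcer1g, the Fc receptor γ chain that signals for NK1.1 and NKp46, read 370 and 224 CPM in γδ MCD and 284 and 259 CPM in γδ control libraries, against 5.8 and 5.31 CPM in CD4+ WT MCD and 5.25 and 1.30 CPM in CD4+ WT control libraries. The 4 γδ libraries were all far above the 4 CD4+ libraries, on either diet. The mean was 64.4-fold higher in γδ T cells (log2 fold change 6.02 ± 0.73 SE, edgeR adjusted p = 0.000368). Tyrobp, which encodes DAP12, read 95.2 and 33.5 CPM in γδ MCD and 54.1 and 60.2 CPM in γδ control libraries, against 4.67 and 1.80 CPM in CD4+ WT MCD and 1.70 and 1.47 CPM in CD4+ WT control libraries. Again no γδ library came near a CD4+ library, and the mean was 25.2-fold higher in γδ T cells (4.68 ± 0.65, edgeR adjusted p = 0.0012). Both adaptors were also called within the control diet (82.99-fold for Fcer1g, 35.96-fold for Tyrobp) and within the MCD diet (53.5-fold for Fcer1g, 19.9-fold for Tyrobp). On either diet the call for Tyrobp was lost without either of the CD4+ WT libraries of that diet and with scaling by library totals. It was also lost without γδ control replicate 7 on the control diet, and with only the groups compared on the MCD diet.

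Ncr1, the gene of the activating receptor NKp46, had 63 and 384 counts in γδ MCD and 1275 and 1090 counts in γδ control libraries, against 0 counts in each of the 4 CD4+ WT libraries. In CPM the γδ values were 5.20 and 25.8 on the MCD diet and 64.9 and 59.0 on the control diet. With 3 counts per library as the floor for the CD4+ side, Ncr1 was at least 280-fold higher in γδ T cells (edgeR adjusted p = 0.00114). Among the 8 receptors it was the one that separated the cell types by presence against absence of reads.

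Among the lectin-like receptors, only Klrk1 and Klrc1 passed the test between cell types. Klrk1 encodes NKG2D, an activating receptor for stress-induced ligands. It read 125 and 99.7 CPM in γδ MCD and 247 and 175 CPM in γδ control libraries, against 40.9 and 14.3 CPM in CD4+ WT MCD and 31.6 and 53.1 CPM in CD4+ WT control libraries. Its lowest γδ library was above its highest CD4+ WT library, with a mean 4.62-fold higher in γδ T cells (2.17 ± 0.44, edgeR adjusted p = 0.0127). Klrc1 encodes NKG2A, the inhibitory partner of CD94, and read 46.1 and 87.4 CPM in γδ MCD and 172 and 202 CPM in γδ control libraries, against 25.5 and 12.4 CPM in CD4+ WT MCD and 17.4 and 32.8 CPM in CD4+ WT control libraries. Its groups did not overlap either, and its mean was 5.76-fold higher in γδ T cells (2.35 ± 0.58, edgeR adjusted p = 0.03). The edgeR call for Klrc1 was lost with scaling by library totals and when CD4+ WT control replicate 2, CD4+ WT MCD replicate 3 or γδ control replicate 7 was left out, over a range of adjusted p of 9.47e-05 to 0.0838 in 22 alternatives. The call for Klrk1 held in all 22.

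The other 5 lectin-like receptors did not pass this test. Klrb1c (NK1.1) averaged 138 CPM in γδ and 54.5 CPM in CD4+ WT libraries (1.31 ± 0.78, edgeR adjusted p = 0.317). Its γδ MCD replicate 4, at 34.1 CPM, lay just under the lowest CD4+ WT library, at 34.5 CPM. Klrd1, which encodes CD94, the common partner of the NKG2 chains, averaged 41.8 CPM in γδ and 18.8 CPM in CD4+ WT libraries (edgeR adjusted p = 0.295). For Klri2, a lectin-like receptor that pairs with the Klre1 product, the averages were 31.3 CPM in γδ and 6.94 CPM in CD4+ WT libraries (edgeR adjusted p = 0.109). Klre1 averaged 43.5 CPM in γδ and 9.98 CPM in CD4+ WT libraries (edgeR adjusted p = 0.355). Klrg1, an inhibitory receptor for cadherins found on mature NK and effector T cells, averaged 6.05 CPM in γδ and 5.95 CPM in CD4+ WT libraries, with nearly all γδ reads in 1 library (21.1 CPM in γδ control replicate 6). Its fitted log2 fold change, which averages the diets on the log scale, was -2.17 ± 0.86 (edgeR adjusted p = 0.135), of the opposite sign to the difference of these means.

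Within a single diet, 3 of the 10 genes were called higher in γδ T cells, and they were Fcer1g, Tyrobp and Ncr1 on both diets. Of all genes, 1.47% were called higher on the MCD diet and 0.45% on the control diet. Without overlap, 5 of 10 genes were higher and 1, Klrg1, was lower in γδ MCD than in CD4+ WT MCD libraries, where 14.5% of all genes were higher and 32% lower in that way. For the control diet 9 of 10 genes were higher without overlap, all but Klrg1, where 20.1% of all genes were. The calls for Ncr1 were lost without either CD4+ WT library of the diet in question, which left Fcer1g alone, and on the MCD diet also with only the groups compared.

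**Figure D2:**
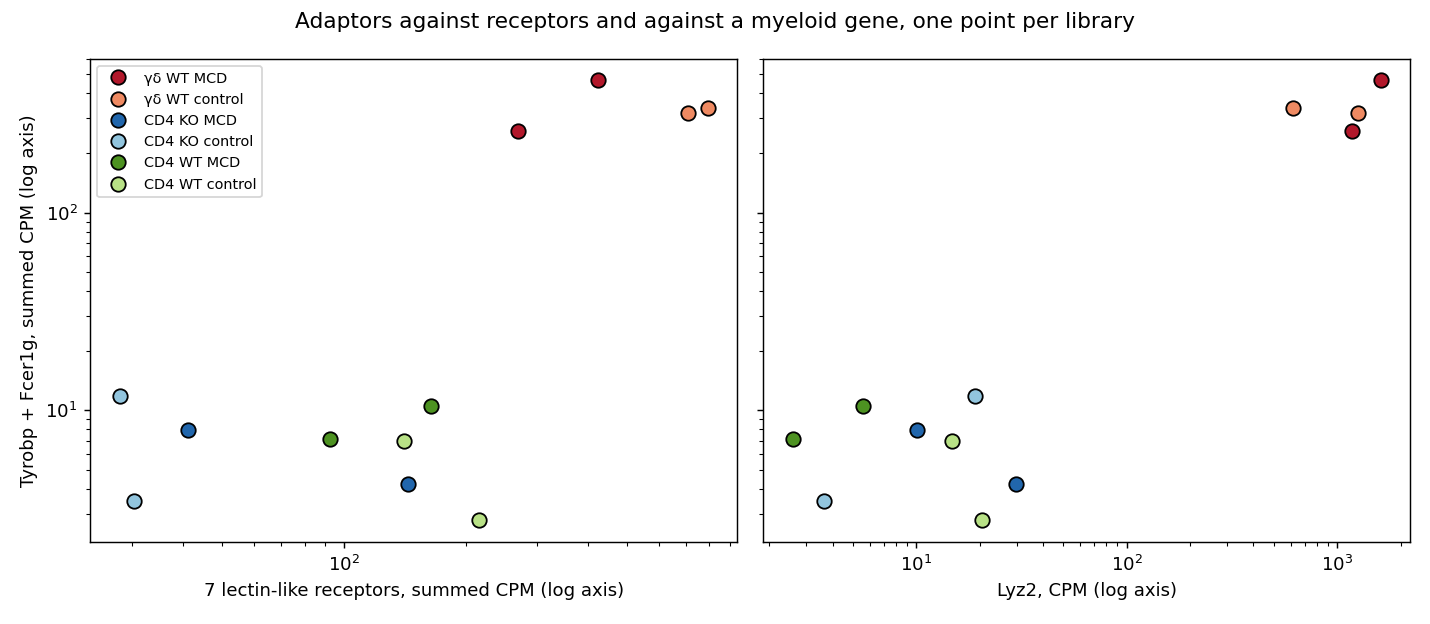
Summed CPM of Tyrobp and Fcer1g (vertical, log axis) against the summed CPM of the 7 lectin-like receptors (left) and against Lyz2 (right), 1 point per library. In CD4+ libraries the receptor sum spans 27.9 to 216 CPM while the adaptor sum stays at 2.77 to 11.8 CPM; the 4 γδ libraries are high in adaptors and in Lyz2 together.

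The 7 lectin-like receptors summed to 423 and 270 CPM in γδ MCD and 794 and 710 CPM in γδ control libraries, against 144 and 41.1 CPM in CD4+ KO MCD, 27.9 and 30.2 CPM in CD4+ KO control, 164 and 92.2 CPM in CD4+ WT MCD and 141 and 216 CPM in CD4+ WT control libraries. The 2 adaptors summed to 465 and 258 CPM in γδ MCD and 338 and 319 CPM in γδ control libraries, and to 2.77 to 11.8 CPM in CD4+ libraries of either genotype. The ratio of the adaptor sum to the receptor sum was 1.10 and 0.954 in γδ MCD and 0.426 and 0.449 in γδ control libraries, against 0.0294 and 0.194 in CD4+ KO MCD, 0.423 and 0.114 in CD4+ KO control, 0.064 and 0.0772 in CD4+ WT MCD and 0.0494 and 0.0128 in CD4+ WT control libraries. CD4+ KO control replicate 1, with few receptor reads, had a ratio near that of the γδ control libraries. On the per-length scale of the deposited FPKM values, Fcer1g had the highest mean level of the 10 genes in γδ MCD (341 FPKM) and γδ control libraries (291 FPKM). In CD4+ WT control libraries the order of mean levels began with Klrb1c (19.6 and 20.9 FPKM), Klrd1 (6.68 and 29.0 FPKM) and Klrc1 (8.23 and 15.8 FPKM). Klrd1 overlapped both of its neighbours in that order, and Ncr1 was last, at 0 FPKM. Klrd1 led in CD4+ KO MCD libraries (10.8 and 11.6 FPKM). In CD4+ KO control libraries Fcer1g had the highest mean level here too (5.37 FPKM), from 1 library at 10.01 FPKM and the other at 0.72 FPKM, and it was not separated from Klrd1 (4.50 and 4.53 FPKM).

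Between the cell types, myeloid transcripts were higher in γδ libraries, as the adaptors were. Within the γδ groups the order was mixed. In γδ control replicates 6 and 7, Lyz2 read 616 and 1252 CPM and the adaptors summed to 338 and 319 CPM. In γδ MCD replicates 2 and 4, Lyz2 read 1616 and 1178 CPM and the adaptors summed to 465 and 258 CPM. Of 16 tested genes on a list of 18 macrophage and Kupffer cell genes, 6 were higher in γδ than in CD4+ T cells of WT mice by the same test, among them Adgre1, Csf1r, Cd68 and Lyz2, and none was lower. Of all genes tested, 3.42% were higher. The list summed to 1813 to 2581 CPM in γδ MCD and 1013 to 1941 CPM in γδ control libraries, against 17.7 to 69.9 CPM in CD4+ libraries. Clec4f, which marks Kupffer cells, was at 0 in both γδ MCD libraries and at 7.88 and 2.44 CPM in γδ control libraries. Of 16 neutrophil and monocyte genes, 11 were tested and 5 were higher in γδ T cells, beside the same 3.42% of all genes. Ly6g was at 0 in all 4 γδ libraries. Mast cells and basophils also use the Fc receptor γ chain. Of 8 genes of theirs 4 were tested and none was called (edgeR, 1 at unadjusted p under 0.05), and Fcer1a and Mcpt8 were at 0 in all 12 libraries. The list summed to 2.31 and 141 CPM in γδ MCD and 4.48 and 71.9 CPM in γδ control libraries, against 0.341 to 4.09 CPM in CD4+ libraries, and the high sums came from Hdc (138 CPM in γδ MCD replicate 4) and Kit (70.1 CPM in γδ control replicate 7). The part of other cell types in the adaptor levels was not tested.

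Other receptors that signal through the same adaptors were found in the γδ libraries too. Of 11 tested genes on a list of 15 myeloid partners of DAP12 and the Fc receptor γ chain, 3 were higher in γδ than in CD4+ T cells of WT mice (Sirpb1b, Clec5a and Clec4e) and none was lower. Of all genes tested, 3.42% were higher. The list summed to 140 to 151 CPM in γδ MCD and 32.7 to 37.4 CPM in γδ control libraries, against 0.244 to 12 CPM in CD4+ libraries. Clec4e, a myeloid lectin that uses the Fc receptor γ chain, read 51.3 and 107 CPM in γδ MCD and 5.19 and 1.79 CPM in γδ control libraries, against at most 0.645 CPM in any CD4+ library. Downstream, beside the same 3.42% of all genes higher, 3 of 18 tested signalling genes were higher in γδ T cells and 1 was lower. They were Syk (19.5-fold higher, edgeR adjusted p = 0.00324), Plcg2 (23.4-fold higher, 0.00117) and Lcp2 (1.61-fold higher, 0.0418), and Lat (log2 fold change -2.04, 0.00431), the scaffold of T cell receptor signalling. The call for Lcp2 held in 14 of 22 alternatives. Among other settings, it was lost without any 1 of CD4+ KO control replicate 1, γδ control replicate 7 and the 4 CD4+ WT libraries. It was also lost with scaling by library totals, where the log2 fold change of Lcp2 was close to 0. The calls for Syk, Plcg2 and Lat held in all 22. Hcst, the DAP10 adaptor of NKG2D, named after its values were seen, lay at 1.55 to 13.9 CPM in γδ libraries and at 4.99 to 18.5 CPM in CD4+ libraries, and these ranges overlapped.

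The wider receptor family was examined in the same way. Of 20 tested genes among 24 other NK receptors in the table, 7 were higher in γδ than in CD4+ T cells of WT mice and none was lower (Klra2, Klra5, Klra6, Klra7, Klri1, Cd160 and Slamf7). Of all genes tested, 3.42% were higher. Klra2, Klra5, Klra6, Klra7 and Klri1 had at most 12 counts in any CD4+ WT library, which leaves little room for a lower level in γδ T cells. Slamf7, a receptor of NK and activated lymphocytes, averaged 366 CPM in γδ and 83.1 CPM in CD4+ WT libraries (4.40-fold, edgeR adjusted p = 0.000384). Cd160 averaged 115 CPM in γδ and 22.8 CPM in CD4+ WT libraries (5.05-fold, edgeR adjusted p = 0.0205, and 8.24e-05 to 0.0678 over 22 alternatives). The call for Cd160 was lost with scaling by library totals and without CD4+ WT control replicate 3, γδ control replicate 7 or CD4+ WT MCD replicate 3. Klra5, of the Ly49 family, read 5.70 and 51.6 CPM in γδ MCD and 75.4 and 35.0 CPM in γδ control libraries, against at most 0.52 CPM in any CD4+ library. Of the other Ly49 genes on the NK marker list, Klra9 read 2.23 and 1.68 CPM in γδ MCD and 24.3 and 8.34 CPM in γδ control libraries, and Klra7 read 0.0825 and 44.2 CPM in γδ MCD and 9.87 and 7.09 CPM in γδ control libraries. Klra8 was at 0 in all γδ libraries, and Klra4 was at 0 in every library but 1, at 0.0491 CPM. Genes of the Klra, Klrb1, Klrc and Klri families hold close copies, so reads could be split between them, and their values, those of Klrb1c, Klrc1 and Klri2 included, are uncertain to that degree.

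**Figure D3:**
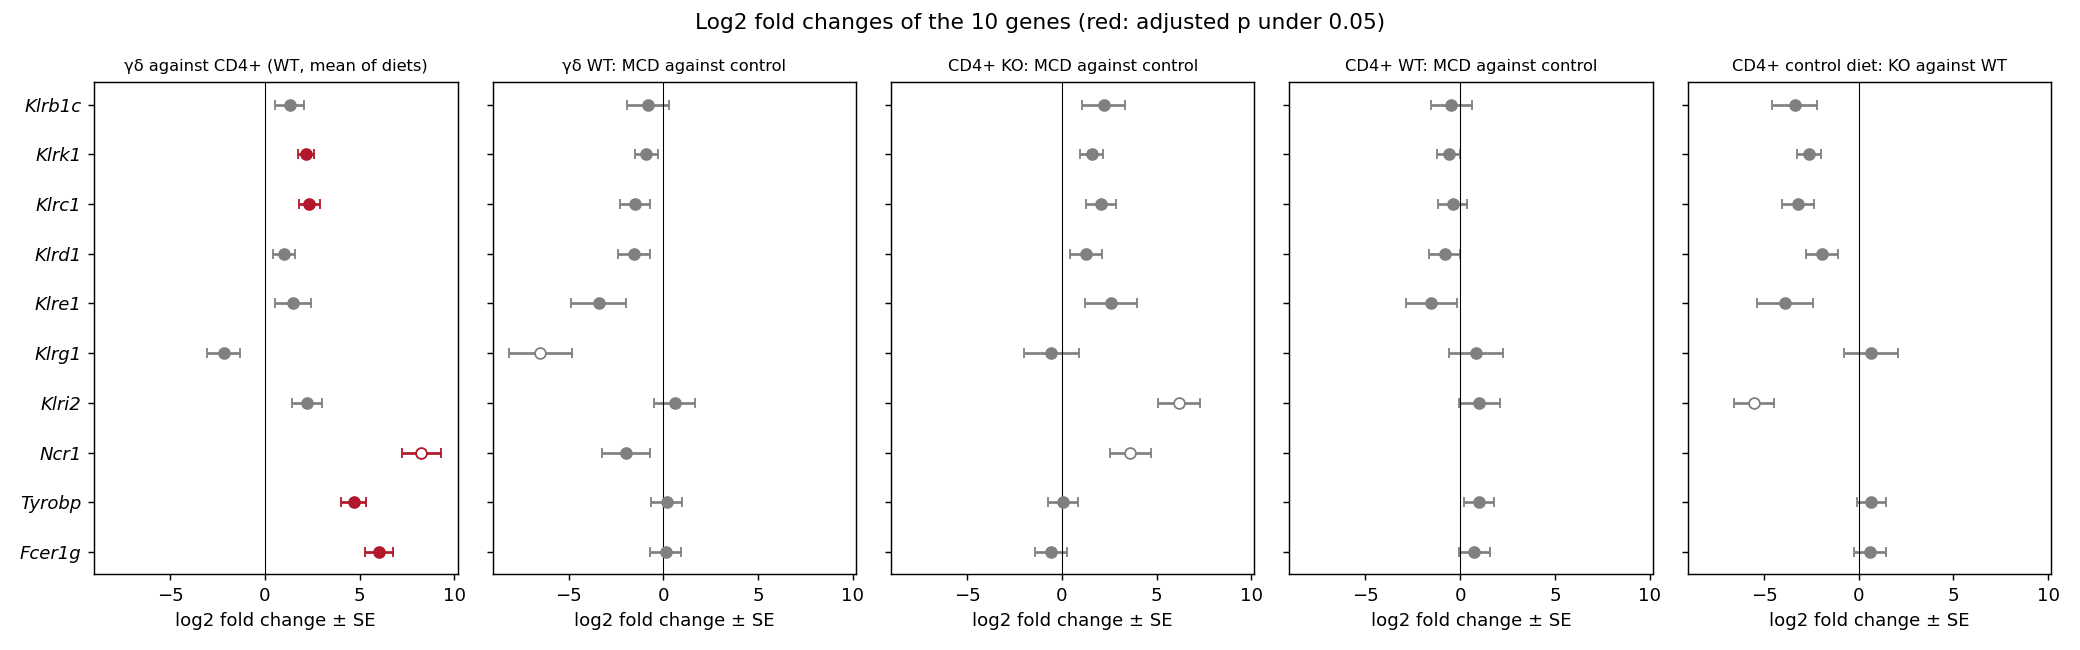
Log2 fold changes with their standard errors for the 10 genes in 5 comparisons; red marks an adjusted p under 0.05 (edgeR), and open symbols mark comparisons in which 1 side had at most 3 counts per library, where the fitted value depends on the prior count. Red points occur only in the comparison of cell types; a gene with at most 3 counts per library on both sides (Ncr1 between diets in CD4+ WT and between genotypes on the control diet) is left out.

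Diet was compared next within γδ T cells. None of the 10 genes passed the test (edgeR), as for all genes, of which 0% were called. By unadjusted p under 0.05, 2 of the 10 passed, Klrg1 and Klre1, beside 17.5% of all genes. DESeq2 called 1, Klrg1, and limma-voom 0. For 6 of 10 genes both MCD libraries lay under both control libraries, where 22.1% of all genes did so. The median log2 fold change was -1.19 over the 10 genes, beside -0.06 over all genes.

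Klrg1 had 0 and 1 counts in γδ MCD libraries, against 415 and 56 counts in γδ control libraries. The ratio of the MCD to the control level was 0.003, with an exact 95% counting interval of 7.57e-05 to 0.0168 (edgeR adjusted p = 0.111, and 0.000505 to 0.438 over the alternatives tried). Klre1 read 4.21 and 10.7 CPM in γδ MCD and 69.0 and 89.9 CPM in γδ control libraries (log2 fold change -3.40 ± 1.45, edgeR adjusted p = 0.251). Neither gene overlapped between the diets. Klrd1, at 15.3 and 27.4 CPM in γδ MCD and 62.3 and 62.1 CPM in γδ control libraries, was also without overlap, as were Ncr1, Klrk1 and Klrc1. The adaptors and Klri2 did not share this direction. Fcer1g had a log2 fold change of 0.13 ± 0.83 and Tyrobp of 0.17 ± 0.80, and for both the MCD libraries lay on either side of the control libraries. Of the 20 other NK receptors tested, 15 lay lower in both γδ MCD libraries than in both γδ control libraries, where 22.1% of all genes did so. None of them was called (edgeR, 4 at unadjusted p under 0.05, beside 17.5% of all genes).

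The γδ libraries of the diets also differed in other cells' genes and in depth. The 10 endothelial genes summed to 103 to 122 CPM in γδ MCD and 681 to 1254 CPM in γδ control libraries. All 10 were lower on the MCD diet, 8 of them without overlap, where 22.1% of all genes were. None was called (edgeR, 7 at unadjusted p under 0.05, beside 17.5% of all genes). The γδ MCD libraries were also those with the fewest genes detected. The part of either in the receptor values was not tested. The cell type by diet interaction called none of the 10 genes (edgeR, 0% of all genes). At unadjusted p under 0.05 it passed 1 of 10, beside 10.6% of all genes, and DESeq2 called 1, Klrg1, and limma-voom 0.

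In CD4+ T cells, the genotypes differed in level on the control diet without passing the test. None of the 10 genes was called between KO and WT (edgeR), where 0.0247% of all genes were called, although 6 of 10 passed at unadjusted p under 0.05, beside 4.03% of all genes. Both KO libraries were under both WT libraries for 6 of 10 genes, where 20.6% of all genes did so, and above them for 1, Tyrobp, where 16.7% did so. The median log2 fold change was -2.28 over the 10 genes and -0.03 over all genes. DESeq2 called 3 of the 10 lower in KO (Klrc1, Klri2 and Klrk1), and limma-voom 0. The dendritic cell genes summed to 8.82 to 19.2 CPM in KO control and 24.5 to 35.9 CPM in WT control, and the B cell genes to 544 to 678 CPM in KO control and 298 to 365 CPM in WT control libraries. The neutrophil and monocyte genes summed to 55.5 to 56.8 CPM in KO control and 165 to 193 CPM in WT control libraries. That sum is weighted to 1 gene: over all 12 libraries Ccr2 averaged 179 CPM, and the next gene, Ly6c2, 22.5 CPM. The part of these cell types in the receptor values was not tested.

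Klrb1c read 5.75 and 6.20 CPM in KO control and 61.7 and 64.8 CPM in WT control libraries, with replicates close together in both groups. Its mean was 10.6-fold lower in KO (log2 fold change -3.38 ± 1.20, edgeR adjusted p = 1). Klrk1 read 5.75 and 7.74 CPM in KO control, against 31.6 and 53.1 CPM in WT control libraries, a mean 6.27-fold lower in KO (-2.63 ± 0.63, edgeR adjusted p = 0.658). Klrc1 read 2.49 and 2.74 CPM in KO control and 17.4 and 32.8 CPM in WT control libraries, a mean 9.60-fold lower in KO (-3.21 ± 0.84, edgeR adjusted p = 0.762). These 3 receptors were low in both KO libraries and high in both WT libraries.

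Klre1 read 0.244 and 1.59 CPM in KO control, against 13.6 and 16.1 CPM in WT control libraries, with an edgeR adjusted p of 1. Klri2 was at 0 in both KO control libraries and at 5.52 and 3.64 CPM in WT control libraries, at least 31.5-fold lower in KO when the floor of 3 counts per library was used (edgeR adjusted p = 0.235, and 0.00012 to 1 over the alternatives tried). Klrd1 read 6.19 and 6.20 CPM in KO control, against 9.11 and 38.9 CPM in WT control libraries, so the WT replicates differed more from each other than the lower of them did from KO. Klrg1 and both adaptors did not share this direction. Klrg1 read 7.46 and 5.77 CPM in KO control and 1.84 and 6.59 CPM in WT control libraries, and Tyrobp read 2.39 and 2.79 CPM in KO control and 1.70 and 1.47 CPM in WT control libraries.

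On the MCD diet the genotypes overlapped for 8 of 10 genes. None was called between KO and WT (edgeR, 0% of all genes), 1 passed at unadjusted p under 0.05, beside 2.08% of all genes, and DESeq2 called 1, Ncr1, and limma-voom 0. The median log2 fold change was -0.40. Ncr1 had 55 and 8 counts in KO MCD libraries, against 0 in both WT MCD libraries, at least 10.1-fold higher in KO by the same floor (edgeR adjusted p = 1), and 15.9% of all genes were higher without overlap. Fcer1g was the 1 gene with both KO MCD libraries, at 2.21 and 4.51 CPM, under both WT MCD libraries, at 5.8 and 5.31 CPM, as 17% of all genes were.

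Between diets within CD4+ KO libraries, none of the 10 genes was called (edgeR, 0.037% of all genes), 4 of 10 passed at unadjusted p under 0.05, beside 6.06% of all genes, DESeq2 called 1, Klri2, and limma-voom 0. Both MCD libraries were above both control libraries for 4 of 10 genes (Klrk1, Klrd1, Klri2 and Ncr1), where 20.8% of all genes did so. The median log2 fold change was 1.82 over the 10 genes and 0.03 over all genes. This comparison and the genotype comparison on the control diet share the KO control libraries. Klri2 read 4.84 and 9.66 CPM in KO MCD and was at 0 in both KO control libraries, at least 49.9-fold higher on the MCD diet (edgeR adjusted p = 0.0909). It passed the threshold in 10 of 24 alternatives, with adjusted p of 1.35e-05 to 0.789, among them without any 1 of the 4 γδ libraries, the WT control CD4+ libraries or CD4+ WT MCD replicate 3. Ncr1 had 55 and 8 counts in KO MCD and 1 and 0 counts in KO control libraries, a ratio of 59.9 with an exact 95% counting interval of 10.4 to 2403. Genes of dendritic cells and B cells differed between the same libraries: 8 dendritic cell genes summed to 21.8 to 77.3 CPM in KO MCD and 8.82 to 19.2 CPM in KO control, and 10 B cell genes to 255 to 321 CPM in KO MCD and 544 to 678 CPM in KO control libraries. Their part in the receptor values was not tested.

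For 3 receptors the KO MCD replicates lay on either side of, or overlapped, the KO control libraries. Klrb1c was at 55.1 CPM in KO MCD replicate 1 and 0.828 CPM in KO MCD replicate 2, against 5.75 and 6.20 CPM in KO control libraries. Klrc1 was at 20.3 and 2.35 CPM in KO MCD and 2.49 and 2.74 CPM in KO control, and Klre1 at 11.7 and 0.644 CPM in KO MCD and 0.244 and 1.59 CPM in KO control libraries. In each of these 3 genes the first replicate was near the WT libraries and the second within or under the range of the KO control libraries. Without KO MCD replicate 1, their log2 fold changes between diets turned to -2.71, -0.15 and -0.45 (2.21, 2.07 and 2.62 with all libraries). In Klrd1 the replicates were close, at 14.7 and 15.9 CPM in KO MCD and 6.19 and 6.20 CPM in KO control libraries.

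Within WT CD4+ libraries none of the 10 genes was called between diets (edgeR, 0% of all genes; 0 at unadjusted p under 0.05, beside 2.13% of all genes; 0 by DESeq2 and by limma-voom), and the median log2 fold change was -0.20. Klri2, Tyrobp and Fcer1g had both MCD libraries above both control libraries (16.7% of all genes did so), and Klrb1c and Klre1 had both under them (17.2%). Klre1 read 9.58 and 0.60 CPM in WT MCD and 13.6 and 16.1 CPM in WT control libraries. The genotype by diet interaction called none of the 10 genes either (edgeR, 0% of all genes). At unadjusted p under 0.05 it passed 4 of 10, beside 4.33% of all genes, and DESeq2 called 1, Klri2, and limma-voom 0. Ncr1, with no reads in WT, gives no interpretable interaction.

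**Figure D4:**
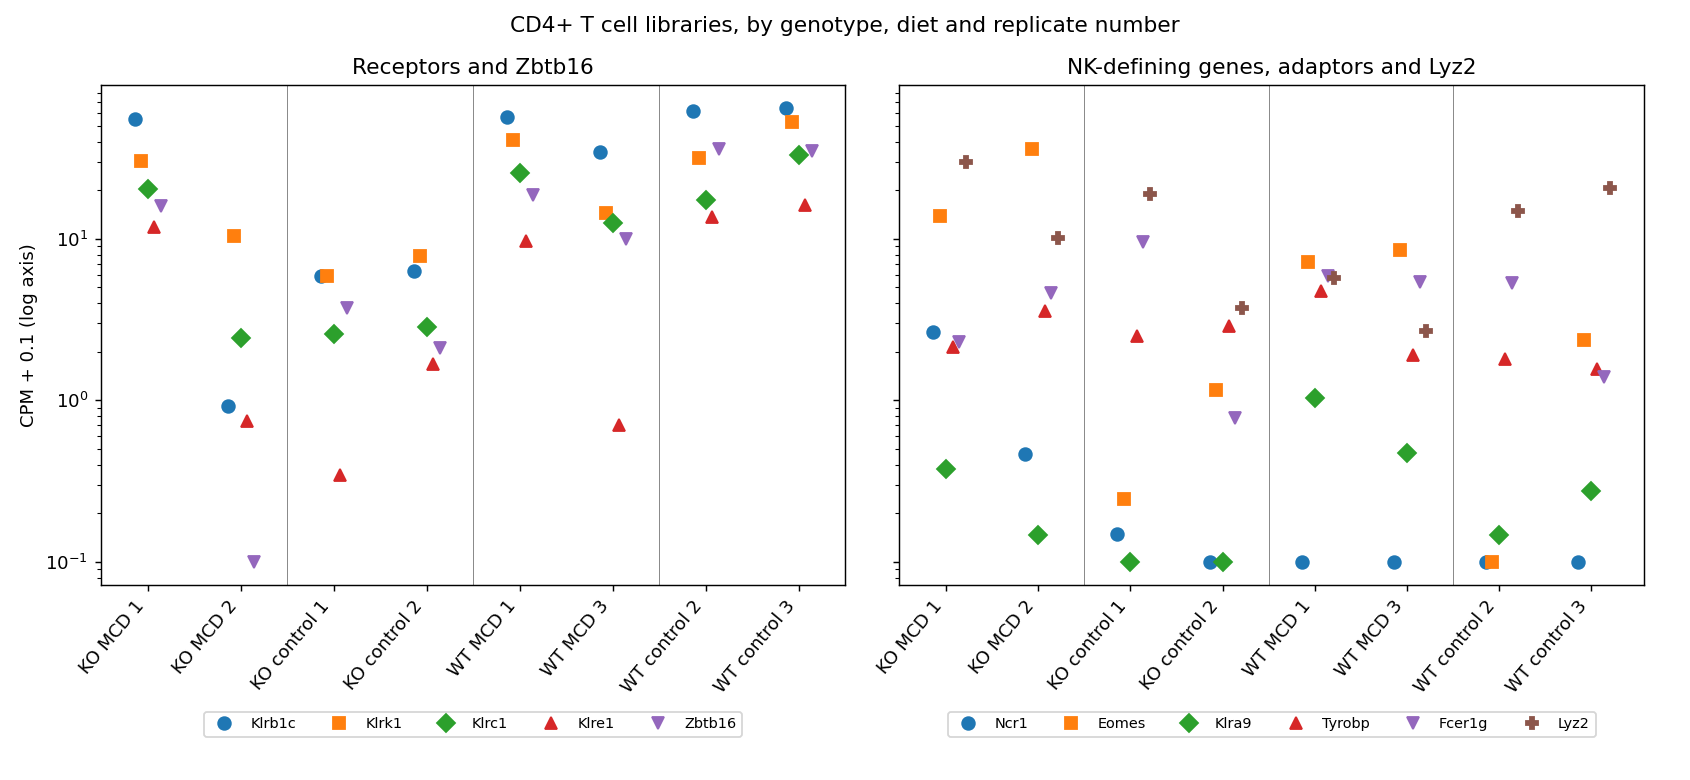
CPM plus 0.1 (log axis) in the 8 CD4+ libraries, named by genotype, diet and replicate number; a point at 0.1 is a library at 0. On the left, 4 receptors and Zbtb16 vary together across libraries. Zbtb16 is the NKT list gene most like Klrb1c (Pearson's r = 0.973), and others of that list, not shown, range from 0.897 (Tbx21) to -0.172 (Slamf6). On the right, Ncr1 and Klra9 are at or near 0 in most libraries, whereas Eomes is present and highest in the KO MCD libraries. Tyrobp, Fcer1g and Lyz2 do not follow the receptors.

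Across the 8 CD4+ libraries, a subset of the receptors varied alike. Pearson's r of log2(CPM + 1) was 0.945 between Klrb1c and Klrc1, 0.956 between Klrk1 and Klrc1, 0.926 between Klrk1 and Klre1 and 0.836 between Klrb1c and Klrk1. With Klrb1c, it was 0.338 for Klrg1, 0.31 for Klri2, 0.0938 for Ncr1, -0.401 for Tyrobp and -0.0892 for Fcer1g. These values describe 8 points that share scaling and fall into 4 groups. The 5 genes most like Klrk1 by this measure, of 7643 ranked, were Fam19a3 (0.969), Klrc1 (0.956), Samd3 (0.955), Klrc2 (0.952) and Tbx21 (0.944), the last encoding the transcription factor T-bet. Those most like Klrd1 held no receptor gene and began with Cwf19l2 (0.952) and Dbr1 (0.933), followed by Epm2aip1, Cog6 and Rb1. Tyrobp was followed most closely by Dgkh (0.98), Arhgap31, Senp7, Ccl25 and Ipo8, and Fcer1g by Hacd2 (0.972), Skiv2l, Taf8, Lck and Nsun6.

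The genes of the NK and NKT marker lists were set beside Klrb1c, with Klrc2, Clec2i, Lyz2 and Cd3e added singly. Among these, Zbtb16 varied most like Klrb1c (r = 0.973 over the 8 libraries). Zbtb16 read 15.9 and 0 CPM in KO MCD, 3.66 and 2.02 CPM in KO control, 18.5 and 9.88 CPM in WT MCD and 36.1 and 35.0 CPM in WT control libraries. As for Klrb1c, KO MCD replicate 2 was the lowest CD4+ library and both WT control libraries were the highest. The receptor gene Klrc2 (0.907), the T-bet gene Tbx21 (0.897) and Clec2i (0.89) came next in this set, which did not hold Klrc1 (0.945). Neither list was uniform. On the NK list r was 0.736 for Txk, 0.551 for Klra7, 0.545 for Klra9, 0.506 for Klra3 and 0.28 for Irf8. It was 0.214 for Itga2, 0.0938 for Ncr1, 0.0491 for Prf1, -0.213 for Eomes and -0.228 for Gzma. Klra7 and Klra9 reached at most 0.0983 and 0.934 CPM in CD4+ libraries. On the NKT list r was 0.739 for Il2rb, 0.643 for Cxcr6, 0.525 for Sh2d1a and 0.456 for Trbv29. It was 0.0204 for Slamf1, -0.0455 for Trbv13-2, -0.151 for Trbv1 and -0.172 for Slamf6. For Lyz2 it was 0.175. Of 11 tested NKT marker genes, 2 were higher, 9 lower and none called in KO against WT on the control diet (edgeR, 2 at unadjusted p under 0.05). Of all 16218 genes tested, 7600 were higher and 8311 lower there, and 4.03% passed at unadjusted p under 0.05. In the diet comparison within KO, which shares the KO control libraries, 9 were higher, 2 lower and none called (edgeR, 1 at unadjusted p under 0.05). Of all genes, 8266 were higher and 7646 lower in that comparison, and 6.06% passed at unadjusted p under 0.05. The NK list, which holds Klrb1c and Ncr1, was counted likewise. Of its 11 tested genes, 3 were higher, 8 lower and none called in KO against WT on control diet (edgeR, 3 at unadjusted p under 0.05, beside 4.03% of all genes). Between diets in KO, 7 were higher, 4 lower and none called (edgeR, 6 at unadjusted p under 0.05, beside 6.06% of all genes). Traj18, the joining segment of the invariant NKT receptor, lay at 0 to 0.269 CPM in γδ libraries. In CD4+ libraries it lay at 3.13 to 9.11 CPM, and its r with Klrb1c was 0.272. Of the variable segment entries on the list, Trav11 and Trav11d, Trav11 was at 0 in all 12 libraries. Trav11d was not: in CD4+ WT MCD replicate 1, 12 of the 13 genes of the NKT list had reads, all but Trav11. In γδ libraries Zbtb16 lay at 125 and 1.48 CPM on MCD and 57.9 and 11.5 CPM on control diet, and its lowest library, γδ MCD replicate 4, was also that of Klrb1c.

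The NK marker genes were uneven in CD4+ libraries. Ncr1 was at 0 in 5 of the 8 and reached 2.53 CPM in KO MCD replicate 1. Klra9 read at most 0.934 CPM, Klra8 at most 0.737 CPM and Klra7 at most 0.0983 CPM in any CD4+ library. Eomes, a transcription factor of NK cells that T cells can also express, read 13.8 and 36.2 CPM in KO MCD, 0.146 and 1.06 CPM in KO control, 7.13 and 8.41 CPM in WT MCD and 0 and 2.25 CPM in WT control libraries. It was highest in the library in which Klrb1c was lowest. Other genes of the NK list were present: Itga2, the integrin CD49b, lay at 6.73 to 48.9 CPM, Irf8 at 0.0975 to 24.1 CPM and Prf1, which encodes perforin, at 0.639 to 13.3 CPM in CD4+ libraries. The 14 NK marker genes summed to 554 to 565 CPM in γδ MCD and 792 to 817 CPM in γδ control libraries, against 257 to 444 CPM in CD4+ libraries, of which Txk, a kinase that T cells express too, made up 155 to 323 CPM. Which cells carried the receptors in the CD4+ libraries was not tested.

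**Figure D5:**
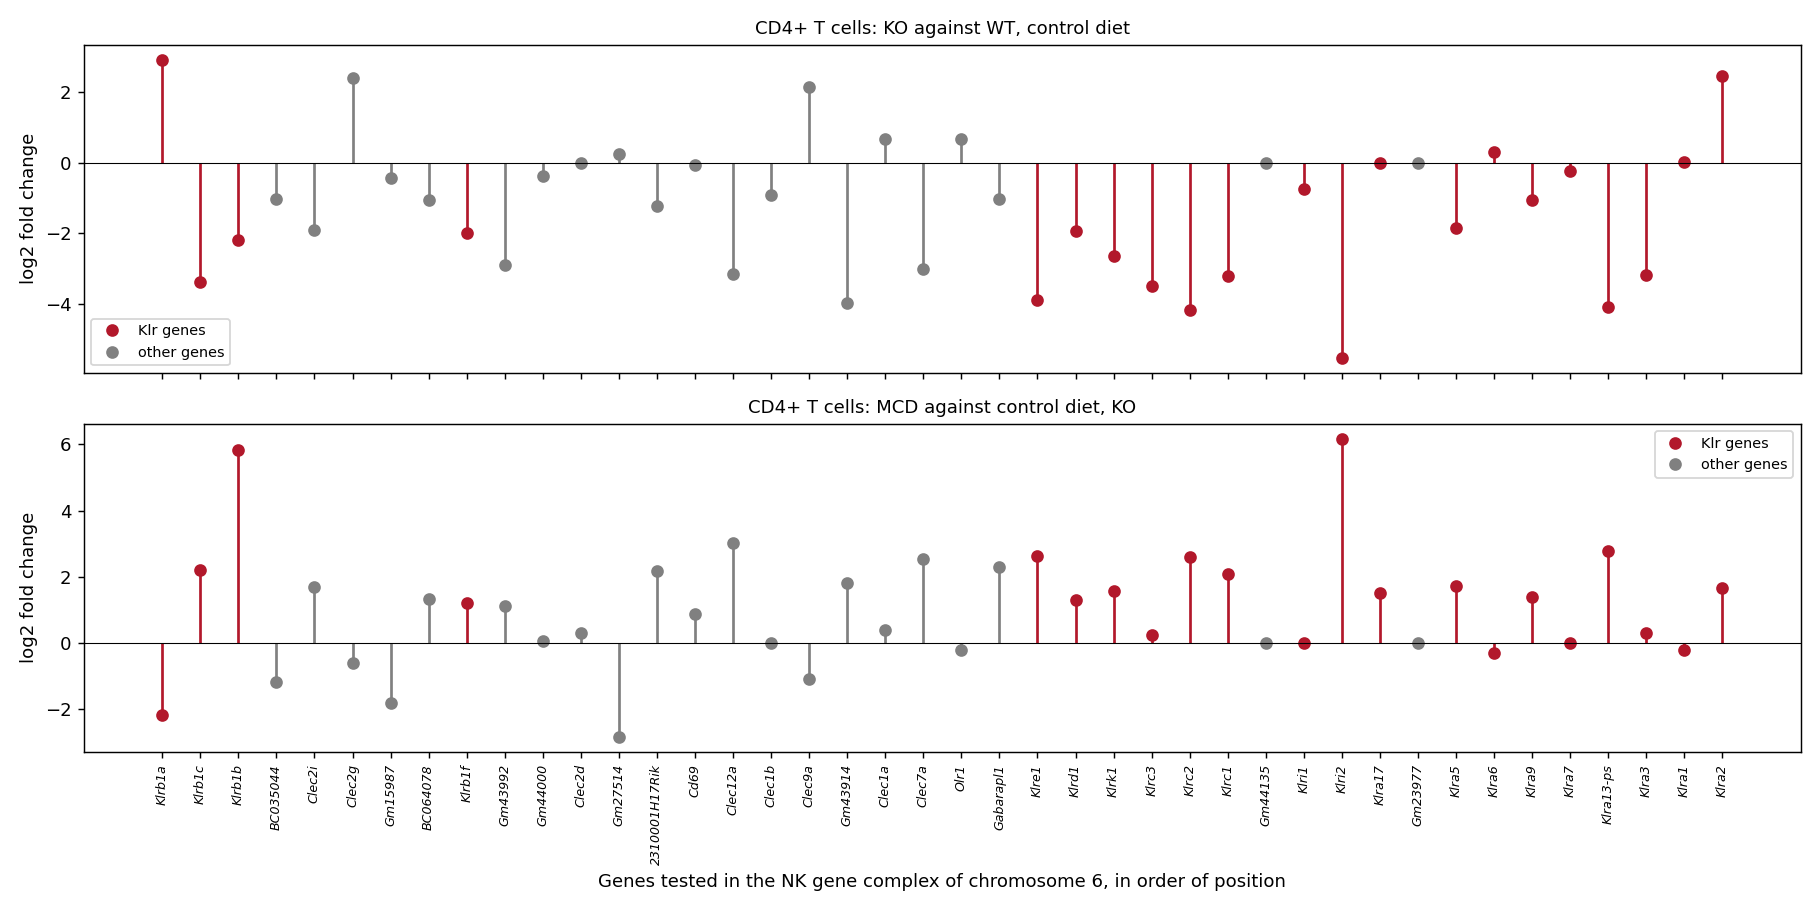
Log2 fold changes of the 42 tested genes of the NK gene complex of chromosome 6, in order of position, in CD4+ T cells: KO against WT on the control diet (top) and MCD against control diet in KO (bottom), with Klr genes in red and other genes in grey. Most Klr genes lie under 0 in the upper panel and above 0 in the lower, and none passed the test in either. Several of the Klra genes had few or no reads in CD4+ KO libraries, so their direction is uncertain.

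The genes Klrb1c, Klre1, Klrd1, Klrk1, Klrc1 and Klri2 lie in the NK gene complex, which was taken as chr6:128609227-131247362 (GRCm38), from the first Klrb1 to the last Klra gene. Of its genes, 42 were tested, 21 of them Klr genes and 21 not. Between KO and WT on the control diet, 16 of 21 Klr genes were lower and 4 higher (median log2 fold change -2.0), against 13 lower and 6 higher of the 21 other genes (-0.44). Between MCD and control diet in KO, 16 of 21 Klr genes were higher and 4 lower (1.49), against 12 higher and 6 lower of the others (0.29). None of these genes was called in either comparison (edgeR), and these comparisons share the KO control libraries. The directions include genes near the floor. Klra3, Klra5, Klra9 and Klra17, higher on the MCD diet in KO, had 0 counts in KO control and at most 10 in KO MCD libraries. Klra5, Klra7 and Klra9, lower in KO on the control diet, had at most 12 counts in any library of that comparison. Klrg1 lies outside the complex on the same chromosome (chr6:122270596-122282882). Klrb1c shares 413 of its 2961 exon bases with Gm44511, which had 0 to 1 counts in every library.

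Genes of ligands and of tissue residence were examined last. Among 9 tested ligand genes of 14 in the table, 1 was higher in γδ than in CD4+ T cells of WT mice: Cdh1, which encodes the Klrg1 ligand E-cadherin, averaged 30.3 CPM in γδ and 1.47 CPM in CD4+ WT libraries (edgeR adjusted p = 0.0104, and 0.0504 without CD4+ WT control replicate 2, the highest of 22 alternatives). Cdh1 read 53.0 and 50.5 CPM in γδ MCD, where Klrg1 was at 0 and 1 counts, against 11.5 and 5.96 CPM in γδ control libraries. H2-T23, which encodes the ligand of CD94 with NKG2A, lay at 44.8 to 81.8 CPM across all 12 libraries. Of 8 genes of type 1 innate lymphoid cells and tissue residence, 2 were higher in γδ than in CD4+ T cells of WT mice, Itga1 (CD49a) and Cxcr6, where 3.42% of all genes were. In KO against WT on control diet, 6 of the 8 passed at unadjusted p under 0.05 (4.03% of all genes) and 1 was called (0.0247% of all genes). That gene, Itga1, was lower in KO, at 5.8 and 14 CPM in KO control and 130 and 71.9 CPM in WT control libraries (log2 fold change -3.33 ± 0.49, edgeR adjusted p = 0.0458). The call for Itga1 held in 18 of 23 alternatives (adjusted p of 6.92e-09 to 0.326) and was lost without KO control replicate 1, with limma-voom, with log2 FPKM values and with only the groups compared. Rgs1 was the 1 gene of this list called higher on the MCD diet in KO (0.037% of all genes were called), at 486 and 485 CPM in KO MCD and 76.9 and 70.5 CPM in KO control libraries (2.72 ± 0.30, edgeR adjusted p = 0.00667), a call that held in all 24 alternatives.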

How the data were processed

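RNA of T cells sorted by flow cytometry was sequenced in 12 libraries, grouped by the labels. Per the submitters' processing notes, bcl2fastq, STAR, featureCounts and DESeq2 were used on mm10 (GRCm38), with no versions; strand and multi-mapping settings are not given in the sources used here. The authors deposited raw counts per gene and FPKM values, whose scale factors matched DESeq2 size factors computed from the counts. Counts were fitted with edgeR 4.0.16 (R 4.3.3): filterByExpr (minimum count 10, total 15), TMM scaling, 1 coefficient per group over all 12 libraries, the 2-sided quasi-likelihood test, a prior count of 2 for fold changes, and Benjamini-Hochberg adjustment over 16218 genes with a threshold of 0.05. CPM values are TMM-scaled. Folds are ratios of mean CPM, and against a group at 0 a floor of 3 counts per library (0.13 to 0.248 CPM) gives a lower bound; floors and intervals cover counting error only.

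The genes and lists were chosen with earlier results of these data known. All 10 genes are named. From other lists the rule allowed up to 6 genes by mean CPM and those called, and the defining markers of each cell type are named too. Genes most like Klrk1, Klrd1, Tyrobp and Fcer1g were the 5 with the highest r among genes of at least 5 CPM. Lists not described in the text were used only as checks. Alternatives were RLE and total-count scaling, DESeq2 1.42.0, limma-voom (limma 3.58.1), other filters, log2 FPKM, only the groups compared, no mitochondrial genes, a replicate block in KO, and leaving out each library. The test was checked on simulated data.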

Additional observations from a re-analysis of the deposited data

How the results depend on the processing

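The 5 genes called between cell types over both diets were 4 to 6 with 1 library left out, and Klrk1, Ncr1, Tyrobp and Fcer1g were called in all 22 alternatives tried. The other counts of called genes moved more. Between cell types on the control diet, 3 genes became 5 with DESeq2, with limma-voom and without a filter, and 1 to 5 with a library left out. On the MCD diet, 3 became 5 with DESeq2 and without a filter, 1 with only the groups compared, and 1 to 5 with a library left out; without either CD4+ WT library of a diet, only Fcer1g was called on that diet, and without either γδ MCD library 5 were called on the control diet. Between diets in γδ T cells, 0 became 1 with DESeq2 and without a filter (Klrg1), and 0 to 1 with a library left out. In KO, 0 became 1 with DESeq2, 2 without a filter (Klrb1c and Klri2), 1 with both γδ MCD libraries left out, an alternative chosen after seeing the data, and 0 to 1 with a library left out. Between genotypes on the control diet, 0 became 3 with DESeq2, 4 without a filter and 0 to 2 with a library left out. On the MCD diet, 0 became 1 with DESeq2 (Ncr1) and stayed at 0 to 0 with a library left out, as it did for diet in WT CD4+ T cells. The genotype by diet interaction went to 1 with DESeq2 and 0 to 1 with a library left out, and the cell type by diet interaction to 1 with DESeq2 and 0 to 0 with a library left out. Fits with a library left out also kept more genes in the filter, 18496 to 18692 against 16218. The cause of these moves was not tested.

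Without KO MCD replicate 1, the log2 fold changes between diets in KO turned to -2.71 for Klrb1c, -0.15 for Klrc1 and -0.45 for Klre1, and the genotype by diet interaction of Klrb1c to -2.25. Leaving out 1 library at a time gave -2.71 to 3.18 for Klrb1c, -0.15 to 2.91 for Klrc1 and -0.45 to 4.18 for Klre1 between diets, and -2.25 to 3.64 for the interaction. The replicate block, fitted on the KO libraries alone, called 0 of the 10 genes, as the fit over all libraries did. Of all genes it called 80 of 13145, against 6 of 13145 in the same libraries without the block. The fit over all libraries called 6 of 16218. The 2 pairs of KO libraries with the same replicate number did not deviate together (r = -0.00589 over genes, which are not replicates). With 2 libraries per group, this r cannot show whether the shared numbers mark a pairing.

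Scaling by totals alone moved the median log2 fold change of all genes from -0.23 to -0.85 between cell types, from -0.03 to -0.38 between genotypes on the control diet and from 0.03 to 0.32 between diets in KO. Counts over all genes depended on tool and filter. Leaving out a library also changed the filter, with 18496 to 18692 genes kept against 16218, so those counts do not reflect the library alone. Between diets in γδ T cells, edgeR called 0, DESeq2 2070, limma-voom 63 and edgeR without a filter 555 genes, with 21 to 78 when a control or CD4+ library was left out, 795 without γδ MCD replicate 2 and 1683 without γδ MCD replicate 4. In KO, edgeR called 6, DESeq2 262, limma-voom 19 and edgeR without a filter 105, with 6 to 136 when a library was left out. In WT CD4+ T cells, edgeR called 0, DESeq2 40 and edgeR without a filter 19. Between genotypes the same methods called 4, 119 and 52 for mice on control diet, and 0, 35 and 11 for mice on MCD diet. Between cell types over both diets they called 966, 3038 and 1588, 106, 914 and 354 for control diet alone, and 430, 2853 and 1071 for MCD diet alone. For the interactions they called 0, 71 and 44 with genotype and 0, 635 and 113 with cell type.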
